A study of Homo sapiens with 9 samples.

Results

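The RAB genes encode small GTPases of the RAS superfamily that steer membrane traffic. A RAB protein carries a lipid anchor, cycles between a GTP-bound form on the membrane and a GDP-bound form held in the cytosol, and in its active form recruits effectors such as tethers and motors, so that each compartment of the secretory and endocytic routes is marked by its own RAB proteins. In colorectal epithelium these routes deliver mucus and secreted vesicles, return receptors such as EGFR to the surface or send them to the lysosome, and keep the apical and basolateral membranes distinct.

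Genes were taken as members where the symbol was RAB followed by a number and at most 1 closing letter from A to D, with at least 90 counts summed over the 9 libraries of the series. The count tables listed 58920 genes, among them 64 such symbols, and 45 of these reached 90 counts. The other 19 did not, and 7 of them, RAB4B, RAB7B, RAB31, RAB39A, RAB39B, RAB41 and RAB42, were listed at 0 in every library. The remaining 12 symbols had between 2 counts (RAB38) and 66 counts (RAB37) over all libraries.

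The 9 libraries came from the colorectal cancer cell line LIM1215, which is sensitive to cetuximab, an antibody against EGFR. LIM1215-R1 and LIM1215-R2 are a pair of resistant lines raised separately from LIM1215 by exposure to slowly rising cetuximab over months, each a mixed population and not a clone, and LIM1215-parental was kept alongside them without the antibody. The study detected activating HRAS mutations in a subpopulation of each resistant line. RNA was taken from all 3 lines in basal culture, and there were 3 libraries per line. The study describes the replicates as technical, so the p-values measure the spread between these libraries, and a difference between cultures cannot be told apart from a difference between lines.

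Total counts lay between 13737416 and 18725014 per library. The floor used here, 3 counts, corresponded to 0.160 to 0.218 CPM (counts per 1000000 counts of a library). CPM of this floor and of the cell type markers were taken without TMM factors, and all other CPM with them. Epithelial markers were abundant, with EPCAM at 694 to 946 CPM, and CDH1, KRT8, KRT18, CDX2 and VIL1 were all well above the floor, whereas KRT20 was at 0 in every library. Summed, the epithelial markers, mostly KRT8 and KRT18, had 11800 to 12100 CPM in the parental libraries, 14900 to 15100 CPM for LIM1215-R1 and 13600 to 14100 CPM for LIM1215-R2. Of 8 markers of blood cells, fibroblasts and endothelium, PTPRC, CD3E and COL1A2 were at 0. The summed level of these 8, mostly CD68, was 9.78 to 13.4 CPM in LIM1215-parental, 13.3 to 15.8 in LIM1215-R1 and 9.94 to 12.0 in LIM1215-R2, and the part of either sum in the results was not tested.

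The family as a whole took nearly the same share of the RNA in each line, and the large fold changes lay in a few of its genes. Together the 45 members had 2831 ± 19.4 CPM (SD, n = 3) in LIM1215-parental, while LIM1215-R1 had 2960 ± 34.1 and LIM1215-R2 2922 ± 28.3. Each library of the resistant lines lay above each parental library, by a few percent. In bulk RNA, fewer cells with a transcript and less of it per cell cannot be told apart.

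Differences were tested with edgeR's quasi-likelihood test over all 19102 genes with at least 10 counts, with Benjamini-Hochberg adjustment, and a gene was called at an adjusted p of at most 0.01. In LIM1215-R1 against LIM1215-parental, 9 of the 45 members were higher, against a background of 14.0% of all genes tested, 8 were lower, against 13.4%, and 28 were not called. In LIM1215-R2 against LIM1215-parental, 10 were higher, against 12.3%, 7 were lower, against 11.6%, and 28 were not called. Because members needed at least 90 counts, the closer background is the 13412 genes that reached that sum, with 36.6% called for LIM1215-R1 and 31.9% for LIM1215-R2. The members stood at 37.8% in both lines, but this background shares only the minimum of 90 counts and was not matched for abundance. Of the 35 members with a mean of at least 10 CPM, 34.3% were called for LIM1215-R1, against 40.6% of such genes. For LIM1215-R2 these shares were 37.1% and 35.1%. Of the 10 members under that mean, 50% were called for LIM1215-R1 and 40% for LIM1215-R2, against 27.6% and 24.8% of such genes. RAB3B and RAB32, members only through their rise, are among these 10. Over all 45 members, the log2 fold change had a median of 0.03 for LIM1215-R1 and of 0.01 for LIM1215-R2. Its median size over the same 45, 0.21 and 0.20, was close to the 0.22 and 0.20 of the 13412 genes. Without the third parental library, the members higher in LIM1215-R2 numbered 6.

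A stricter threshold asks in addition for a log2 fold change of 1.5 or more in size, and a gene that met it is called a DEG here. The cutoffs are those of the study, which applied them to shrunken DESeq2 fold changes, whereas the edgeR fold changes here were not shrunk. It was passed by 6 members in LIM1215-R1. RAB27B, RAB3B, RAB32 and RAB29 were higher and RAB3D and RAB36 lower, against a background of 5.14% of all genes tested in either direction. In LIM1215-R2 it was passed by 4 members, RAB27B, RAB3B and RAB32 upwards and RAB3D downwards, against 4.82%. RAB3B and RAB32 reached 90 counts only through the resistant lines, with 7 and 14 reads over the parental libraries, so their increase was a condition of being counted among the members, and they add 2 to every count of members called higher in a resistant line than in LIM1215-parental. Leaving both out, LIM1215-R1 had 4 member DEGs and LIM1215-R2 had 2. Among the 35 members with a mean of at least 10 CPM over the 9 libraries, RAB27B and RAB29 were DEGs in LIM1215-R1 and RAB27B alone in LIM1215-R2. That mean moves with the changes themselves. RAB27B, at 9.09 CPM in LIM1215-parental, reached it through the resistant lines, and RAB3D, at 13.7 CPM in LIM1215-parental, missed it through its fall.

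Both resistant lines were called in the same direction for 13 members. RAB27B, RAB3B, RAB32, RAB29, RAB30, RAB1A and RAB10 were higher in both, and RAB3D, RAB24, RAB5B, RAB13, RAB15 and RAB4A lower in both. No member was called in opposite directions, 4 were called in LIM1215-R1 alone, 4 in LIM1215-R2 alone and 24 in neither. Among the 13412 genes with at least 90 counts, 24.4% were called in both lines with the same direction, 30 genes in opposite directions, 1604 in LIM1215-R1 alone, 977 in LIM1215-R2 alone and 7527 in neither. The lines share their parental control libraries, so these calls are not independent.

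**Figure D1:**
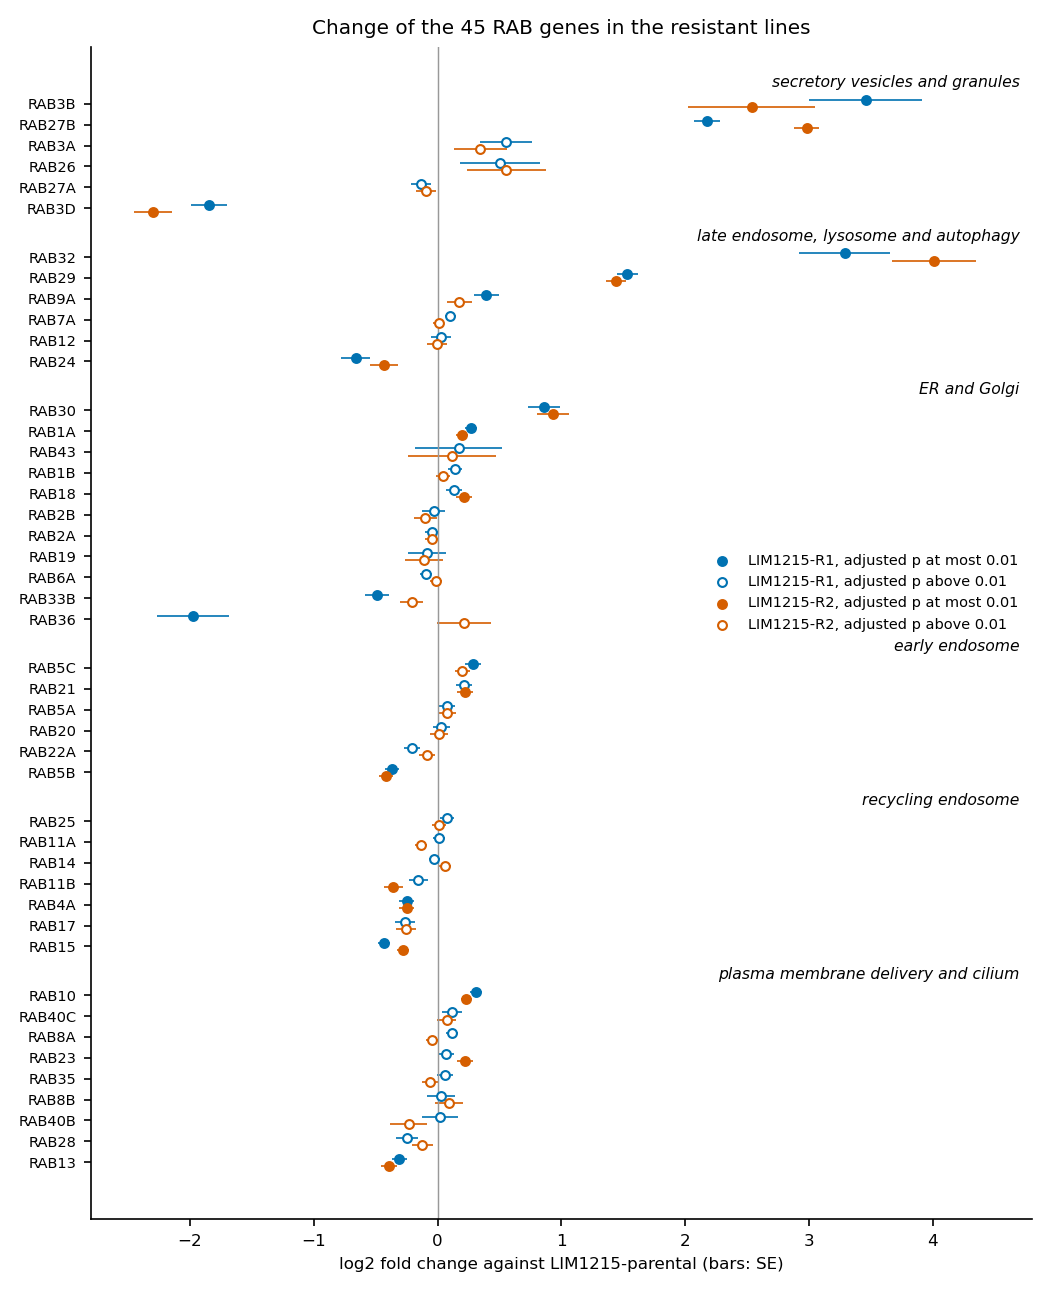
Log2 fold change of each of the 45 RAB genes (rows, grouped by compartment) in LIM1215-R1 (blue) and LIM1215-R2 (orange) against LIM1215-parental, with bars for the standard error and filled points for an adjusted p of at most 0.01. Most genes lie close to 0, while RAB27B, RAB3B, RAB32 and RAB29 stand to the right in both lines, RAB3D to the left in both and RAB36 to the left in LIM1215-R1 alone.

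The secretory members showed the widest spread of changes. RAB27A and RAB27B are paralogs that dock secretory granules, lysosome-related organelles and multivesicular bodies at the plasma membrane, the step before exocytosis or the release of exosomes. RAB3A, RAB3B and RAB3D act on regulated secretory vesicles, and RAB26 on secretory granules. RAB27B and RAB3B were called higher and RAB3D lower in both resistant lines, and RAB27A, RAB3A and RAB26 were called in neither.

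Since RAB27B was called and its paralog RAB27A was not, while RAB3D fell and RAB32 rose, the 250 bases before the RefSeq start of each are shown 5′ to 3′ on the gene's strand (GRCh38.p14), with the GC box motif GGGCGG, searched on both strands, in capitals. They are chr15:55319124-55319373 (minus strand) for RAB27A, chr18:54717607-54717856 (plus) for RAB27B, chr19:11339658-11339907 (minus) for RAB3D and chr6:146543583-146543832 (plus) for RAB32.
RAB27A: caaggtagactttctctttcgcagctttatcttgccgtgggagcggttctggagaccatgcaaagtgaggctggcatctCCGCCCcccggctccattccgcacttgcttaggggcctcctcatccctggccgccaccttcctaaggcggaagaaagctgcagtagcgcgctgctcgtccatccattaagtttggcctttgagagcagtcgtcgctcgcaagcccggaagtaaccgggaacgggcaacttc
RAB27B: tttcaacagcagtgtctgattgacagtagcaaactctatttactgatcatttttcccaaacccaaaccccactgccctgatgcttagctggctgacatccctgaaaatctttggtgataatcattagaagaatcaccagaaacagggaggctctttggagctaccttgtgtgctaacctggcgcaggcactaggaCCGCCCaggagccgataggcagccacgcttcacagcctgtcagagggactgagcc
RAB3D: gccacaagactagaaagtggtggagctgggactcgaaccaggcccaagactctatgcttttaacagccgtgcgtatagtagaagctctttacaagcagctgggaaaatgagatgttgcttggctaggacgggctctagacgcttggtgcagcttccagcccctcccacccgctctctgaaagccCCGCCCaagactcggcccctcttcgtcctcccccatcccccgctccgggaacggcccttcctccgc
RAB32: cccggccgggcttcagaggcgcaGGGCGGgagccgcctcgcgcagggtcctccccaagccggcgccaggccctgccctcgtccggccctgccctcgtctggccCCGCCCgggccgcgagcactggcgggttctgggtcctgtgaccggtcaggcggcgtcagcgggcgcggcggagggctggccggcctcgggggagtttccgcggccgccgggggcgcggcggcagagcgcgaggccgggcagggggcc

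The RAB27B window was the least GC-rich of the 4, at 50.4% against 58.8% for RAB27A, 59.6% for RAB3D and 82.0% for RAB32. Each held a GC box, which RAB32 held in 2 places. Promoters were found for 37 of the 45 members, and 86.5% of them held the GC box within this window, against 42.6% of all 35116 promoters and 53.7% of those of protein-coding genes. Unlike the members, these backgrounds were not limited to genes with at least 90 counts, so the share cannot be read as particular to RAB genes. The member promoters were also richer in G and C, with a median of 65.6% against 58.0% of all promoters and 62.0% of the protein-coding ones, and the part of this in the share of GC boxes was not tested. The TATAAA motif was found in 0 of the 37, against 10.7% of all promoters and 9.0% of the protein-coding ones. An AP-1 motif (TGANTCA) was present in RAB3B and RAB5B alone, 5.4% of the members. It was in 6.6% of all promoters and 5.4% of the protein-coding ones. The E-box CACGTG occurred in 10.8% of member promoters, against 6.3% of all and 7.4% of the protein-coding ones. CCAAT occurred in 27.0%, against 32.0% and 32.7%. These are matches of letters, and binding was not measured.

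RAB27B (chr18:54717857-54895516) had the best-supported increase of the family. Its 3 libraries read 9.80, 8.96 and 8.51 CPM in LIM1215-parental, 44.5, 34.4 and 44.4 CPM in LIM1215-R1 and 72.2, 77.2 and 65.3 CPM in LIM1215-R2. The lines did not overlap, and LIM1215-R2 was the highest. The increase was 4.53-fold in LIM1215-R1 (log2 fold change 2.18, SE 0.105, edgeR adjusted p = 1.44e-15) and 7.89-fold in LIM1215-R2 (2.98, SE 0.10, edgeR adjusted p = 5.62e-19). Left out 1 library at a time, the log2 fold change kept between 2.12 and 2.29 in LIM1215-R1 and between 2.92 and 3.04 in LIM1215-R2.

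RAB27A (chr15:55202966-55319123) stood at 22.7, 21.8 and 25.1 CPM in LIM1215-parental, 21.5, 20.8 and 21.5 CPM in LIM1215-R1 and 21.2, 21.9 and 22.3 CPM in LIM1215-R2. The parental values overlapped those of LIM1215-R2 and lay just above those of LIM1215-R1. Neither line passed the test, with log2 fold changes of -0.13 (95% interval -0.29 to 0.03, edgeR adjusted p = 0.232) and -0.09 (-0.25 to 0.07, edgeR adjusted p = 0.435).

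Per kilobase of transcript, RAB27B lay well under RAB27A in LIM1215-parental, near it in LIM1215-R1 (means of 5.87 against 6.17 CPM per kilobase) and above it in LIM1215-R2. The ratio of RAB27B to RAB27A in CPM per kilobase was 0.194 ± 0.0236 (SD, n = 3) in LIM1215-parental, whereas LIM1215-R1 reached 0.951 ± 0.118 and LIM1215-R2 1.62 ± 0.156. The LIM1215-R1 libraries gave 1.02, 0.815 and 1.02, on both sides of equal levels. Of the CPM of all 6 secretory members, RAB27B took 18.5% ± 1.65 in the parental line, 56.9% ± 3.25 in LIM1215-R1 and 70.9% ± 2.13 in LIM1215-R2. Their summed level rose from between 48.0 and 49.6 CPM in the parental libraries to between 64.6 and 76.3 CPM in LIM1215-R1 and between 95.4 and 106.7 CPM in LIM1215-R2.

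RAB3D (chr19:11322068-11339657), found on secretory granules of exocrine cells, went the other way. It had 12.4, 15.2 and 13.3 CPM in LIM1215-parental, 3.13, 3.52 and 4.69 CPM in LIM1215-R1 and 3.03, 2.42 and 2.81 CPM in LIM1215-R2. Every resistant library lay far under the parental ones. The level was 3.60-fold lower in LIM1215-R1 (log2 fold change -1.85, SE 0.146, edgeR adjusted p = 4.87e-11) and 4.93-fold lower in LIM1215-R2 (-2.30, SE 0.154, edgeR adjusted p = 1.63e-12).

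RAB3B (chr1:51907956-51990700) was near the floor in the parental line, with 4, 1 and 2 reads counted in its 3 libraries. LIM1215-R1 had 30, 28 and 20 reads and LIM1215-R2 14, 10 and 17, with no overlap with the parental counts. The ratio to LIM1215-parental from the summed counts was 11.2 (95% counting interval 5.20 to 28.9) in LIM1215-R1 and 5.98 (2.65 to 15.8) in LIM1215-R2. Counting error alone leaves both sizes loose, and the intervals cover nothing else. The edgeR adjusted p was 6.09e-07 and 0.000259, and even the higher line had only 1.62 ± 0.319 CPM. RAB3A had 2.16 ± 0.330 CPM in the parental line, 3.13 ± 0.328 in LIM1215-R1 and 2.72 ± 0.525 in LIM1215-R2, and RAB26 lay between 0.630 and 1.30 CPM in all libraries. RAB3C and RAB37, secretory RAB genes under 90 counts, had 15, 4 and 0 reads and 37, 15 and 14 reads summed over the parental, LIM1215-R1 and LIM1215-R2 libraries.

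**Figure D2:**
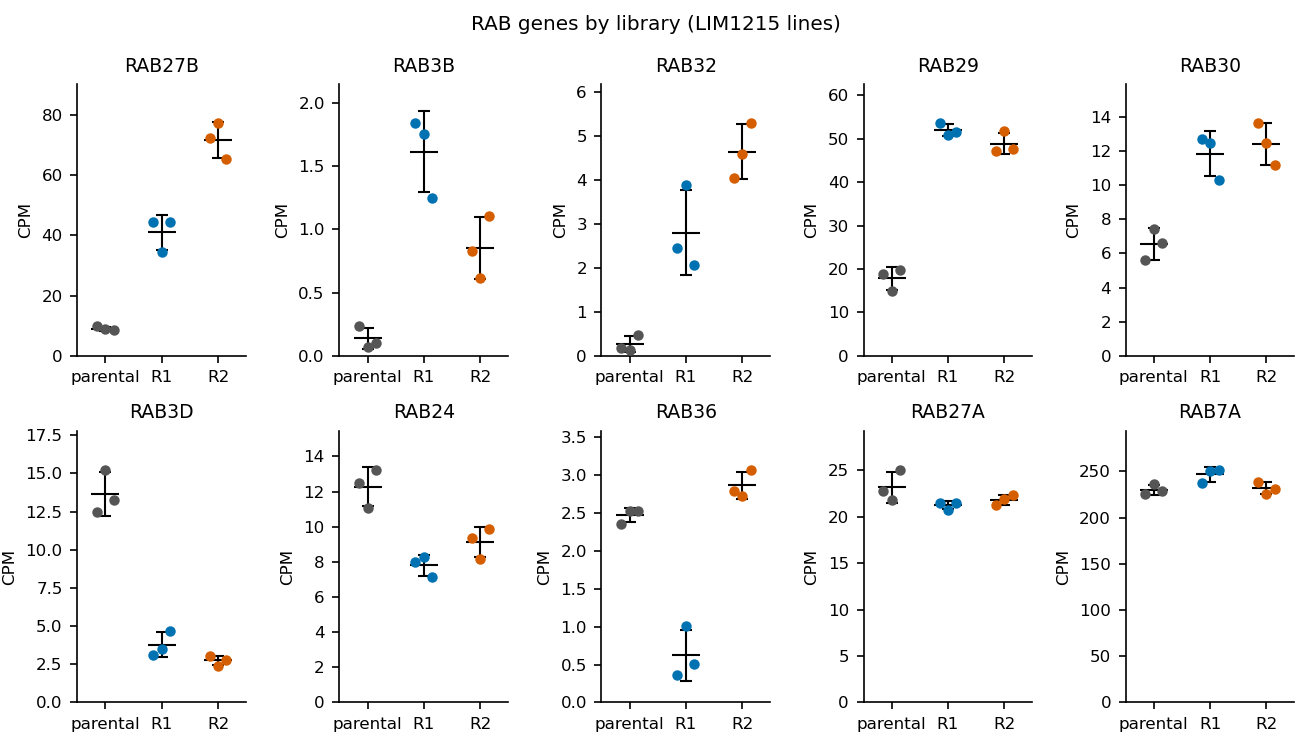
CPM of 10 RAB genes in each library (points) of the parental line, LIM1215-R1 and LIM1215-R2, with the mean and SD of 3 libraries in black; each panel has its own axis from 0. RAB27B climbs from a mean of 9.09 CPM in LIM1215-parental to a mean of 71.6 CPM in LIM1215-R2, RAB36 is low only in LIM1215-R1, and RAB27A and RAB7A show near-level means.

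The late endosomal and lysosomal group also held large changes, outside its most abundant gene. RAB7A, the regulator of late endosome and lysosome fusion, had the highest level per kilobase of all members in LIM1215-parental and was called in neither line (229.9 ± 5.41, 246.7 ± 7.93 and 231.6 ± 6.51 CPM). RAB12, which acts between recycling endosomes and lysosomes, was called in neither line. RAB9A, which returns mannose 6-phosphate receptors to the Golgi, was higher in LIM1215-R1 (14.4 ± 0.766 against 10.9 ± 0.955 CPM, log2 fold change 0.39, edgeR adjusted p = 0.00287), a call lost in 4 of the 9 fits that left out a library.

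RAB29 (chr1:205767986-205775482) codes for a partner of the kinase LRRK2 at the Golgi and on stressed lysosomes. Its values were 18.9, 14.9 and 19.7 CPM in LIM1215-parental, 53.6, 50.8 and 51.6 CPM in LIM1215-R1 and 47.3, 51.7 and 47.6 CPM in LIM1215-R2. The resistant lines overlapped each other and neither overlapped the parental line. RAB29 was 2.89-fold higher in LIM1215-R1 (log2 fold change 1.53, SE 0.0822, edgeR adjusted p = 1.48e-14) and 2.72-fold higher in LIM1215-R2 (1.44, SE 0.0826, edgeR adjusted p = 5.93e-14). It met the DEG threshold in LIM1215-R1 by a narrow margin, on a fold change that was not shrunk, and missed it in LIM1215-R2, and the difference between these lines was not called (log2 fold change -0.09, edgeR adjusted p = 0.501).

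RAB32 (chr6:146543833-146554953), which serves lysosome-related organelles and contacts with mitochondria, was close to the floor in LIM1215-parental with 3, 2 and 9 reads. LIM1215-R1 had 40, 62 and 33 reads and LIM1215-R2 68, 74 and 81. The counts rose in every resistant library. From the summed counts the ratio was 9.73 (95% counting interval 5.60 to 18.3) in LIM1215-R1 and 16.3 (9.48 to 30.2) in LIM1215-R2, with edgeR adjusted p = 4.14e-08 and 1.83e-10. Its relative RAB38 had 0, 0 and 2 reads summed over the libraries of the 3 lines. RAB24 (chr5:177301198-177303719), linked to autophagy, was lower in both, at 12.3 ± 1.11 CPM in LIM1215-parental, 7.80 ± 0.596 in LIM1215-R1 (log2 fold change -0.66, edgeR adjusted p = 4.79e-05) and 9.12 ± 0.863 in LIM1215-R2 (-0.43, edgeR adjusted p = 0.00372). RAB24 shares 56.4% of its transcript words of 75 bases with the gene MXD3, so the assignment of its reads was uncertain. The call of RAB24 in LIM1215-R2 was lost with DESeq2 and in 4 of the 9 fits without a library.

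Among the 11 members of the endoplasmic reticulum and Golgi, 7 were not called in LIM1215-R1 and 8 not in LIM1215-R2. The shares called were 36.4% and 27.3%, against 36.6% and 31.9% of the genes with at least 90 counts. RAB1A and RAB1B drive transport from the endoplasmic reticulum to the Golgi. RAB1A was slightly higher in both lines, from 148.5 ± 5.64 CPM to 179.3 ± 4.79 (log2 fold change 0.27, edgeR adjusted p = 4.59e-05) and 170.3 ± 4.97 (0.20, edgeR adjusted p = 0.00192). Its call in LIM1215-R2 was lost without the third parental library (edgeR adjusted p = 0.0165) and without the third LIM1215-R2 library (edgeR adjusted p = 0.0174). RAB1B had 139.0 ± 8.49, 152.8 ± 9.60 and 143.0 ± 8.63 CPM and was called in neither line. RAB6A, the regulator of retrograde traffic at the Golgi, had 149.8 ± 2.65, 140.4 ± 4.76 and 148.6 ± 2.58 CPM and was not called either. RAB6A shares 10.2% of its words with RAB6C and RAB6D.

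RAB30 (chr11:82973133-83071897), a Golgi protein, was higher in both lines. It read 5.61, 7.44 and 6.62 CPM in LIM1215-parental, 12.7, 12.5 and 10.3 CPM in LIM1215-R1 and 13.6, 12.4 and 11.2 CPM in LIM1215-R2. No resistant library fell within the parental range. The log2 fold change was 0.86 (SE 0.128, edgeR adjusted p = 4.31e-06) in LIM1215-R1 and 0.93 (SE 0.127, edgeR adjusted p = 1.17e-06) in LIM1215-R2.

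RAB36 (chr22:23145324-23169280), which is linked to the positioning of late endosomes and lysosomes and is listed here with the Golgi genes, was the one member that fell strongly in a single line. Its reads numbered 40, 35 and 48 in LIM1215-parental, 6, 16 and 8 in LIM1215-R1 and 47, 44 and 47 in LIM1215-R2. The LIM1215-R1 libraries lay under all others, and the parental and LIM1215-R2 libraries overlapped. RAB36 was 3.93-fold lower in LIM1215-R1 than in LIM1215-parental (log2 fold change -1.97, SE 0.291, edgeR adjusted p = 3.67e-06), while LIM1215-R2 gave 0.21 (95% interval -0.22 to 0.64, edgeR adjusted p = 0.525). RAB33B, a Golgi protein that binds the autophagy machinery, was lower in LIM1215-R1 (13.5 ± 1.15 against 19.0 ± 0.962 CPM, log2 fold change -0.49, edgeR adjusted p = 0.000141), and RAB18, found on lipid droplets, was higher in LIM1215-R2 (88.9 ± 4.05 against 76.6 ± 4.34 CPM, 0.21, edgeR adjusted p = 0.00872). RAB2A, RAB2B, RAB19 and RAB43 were called in neither line. RAB43, at 0.654 to 2.29 CPM, shares 90.7% of its words with the readthrough gene ISY1-RAB43 and others. RAB4B shares all of them with the readthrough genes MIA-RAB4B and RAB4B-EGLN2, so its 0 counts cannot be read as an absent transcript.

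The early endosome members moved little and in both directions. RAB5A, RAB5B and RAB5C are paralogs that promote fusion of early endosomes, the first station of internalised receptors. RAB5B was lower in both lines, from 93.2 ± 0.484 CPM to 72.2 ± 1.82 (log2 fold change -0.37, edgeR adjusted p = 5.44e-06) and 69.7 ± 4.05 (-0.42, edgeR adjusted p = 7.95e-07). RAB5C was higher in LIM1215-R1, at 199.8 ± 19.8 against 164.2 ± 12.0 CPM (0.28, edgeR adjusted p = 0.000532), and stood at 188.4 ± 9.49 CPM in LIM1215-R2 (0.20, edgeR adjusted p = 0.0132). RAB5A had 54.5 ± 2.74, 57.5 ± 5.17 and 57.7 ± 1.5 CPM and was called in neither line. RAB21, which carries integrins, was called higher in LIM1215-R2 (99.8 ± 0.456 against 85.3 ± 6.06 CPM, log2 fold change 0.22, edgeR adjusted p = 0.00942) and had a similar value in LIM1215-R1 (0.21, edgeR adjusted p = 0.0111). RAB20 and RAB22A were not called. Of the alternative fits and thresholds, 8 called RAB5C in LIM1215-R2, 7 called RAB21 in LIM1215-R1 and 3 called RAB22A in LIM1215-R1. RAB5C shares 41.4% of its words with an overlapping annotated gene.

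No recycling endosome member was called higher in either line in the test over all 9 libraries. In either direction, 28.6% were called in LIM1215-R1 and 42.9% in LIM1215-R2, against 36.6% and 31.9% of the genes with at least 90 counts. RAB4A and RAB11A mark the fast and slow routes by which receptors return to the surface, and RAB25 is the epithelial relative of RAB11A. RAB15 was lower in both lines, from 154.5 ± 1.12 CPM to 114.5 ± 2.42 (log2 fold change -0.43, edgeR adjusted p = 3.41e-08) and 127.5 ± 3.70 (-0.28, edgeR adjusted p = 3.48e-05). RAB4A was lower by a similar amount in both, from 73.1 ± 1.85 CPM to 61.4 ± 3.88 and 61.5 ± 3.98 (-0.25 in each line, edgeR adjusted p = 0.00198 and 0.00237), though each call was lost in 3 of the 9 fits without a library. RAB11B was lower in LIM1215-R2, at 58.9 ± 2.69 against 75.7 ± 8.62 CPM (-0.36, edgeR adjusted p = 0.000648). RAB11A had 149.0 ± 5.22, 150.4 ± 4.53 and 135.7 ± 0.522 CPM and RAB25 91.8 ± 3.38, 96.9 ± 6.23 and 92.5 ± 1.96 CPM, neither called. In the fit that took out trends on GC content and length, RAB11A was called higher in LIM1215-R1 (log2 fold change 0.15, edgeR adjusted p = 0.00208). RAB14, which acts between the Golgi and endosomes, and RAB17, an epithelial recycling protein, were not called. RAB17 lay near the threshold (-0.26 and -0.25, edgeR adjusted p = 0.0132 and 0.0188). It was called in 5 of the alternative fits and thresholds for LIM1215-R1 and in 2 for LIM1215-R2.

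Of the 9 members of plasma membrane delivery and the cilium, RAB10 and RAB13 were called in both lines. RAB10, which delivers basolateral cargo and glucose transporters, was higher, from 173.2 ± 4.61 CPM to 214.7 ± 5.87 (log2 fold change 0.31, edgeR adjusted p = 3.13e-06) and 203.1 ± 3.63 (0.23, edgeR adjusted p = 0.000192). RAB13, a tight junction protein, was lower, from 56.6 ± 0.850 CPM to 45.7 ± 1.20 (-0.31, edgeR adjusted p = 0.000209) and 43.1 ± 2.20 (-0.39, edgeR adjusted p = 1.02e-05), and it shares 55.9% of its words with 2 other annotated genes. RAB23, an antagonist of Hedgehog signalling, was higher in LIM1215-R2 (65.9 ± 0.0941 against 56.5 ± 4.33 CPM, 0.22, edgeR adjusted p = 0.00801). RAB8A, which carries post-Golgi vesicles to the membrane and the cilium, had 124.4 ± 2.62, 134.8 ± 3.62 and 120.5 ± 3.07 CPM and was called in neither line. RAB8B, RAB28, RAB35, RAB40B and RAB40C were not called either. The calls of RAB18, RAB21 and RAB23 in LIM1215-R2 sat close to the threshold and were lost in 6, 7 and 6 of the 9 fits without a library.

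Levels across the family spanned 4 orders of magnitude per kilobase of transcript. In LIM1215-parental the order was RAB7A (105 CPM per kilobase), RAB5C (100 CPM per kilobase), RAB25 (83.5), RAB1B (73.1) and RAB1A (60.7), and RAB3B was last with 0.0108. The same 5 genes led in both resistant lines, with RAB5C ahead of RAB7A (122 against 113 CPM per kilobase in LIM1215-R1 and 115 against 106 in LIM1215-R2). RAB27B moved from rank 39 of 45 in LIM1215-parental to 31 in LIM1215-R1 and 27 in LIM1215-R2, and RAB32 from 44 to 36 and 34. RAB29 moved from rank 30 to 21 in both resistant lines, and RAB3D from 34 to 41 and 42.

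**Figure D3:**
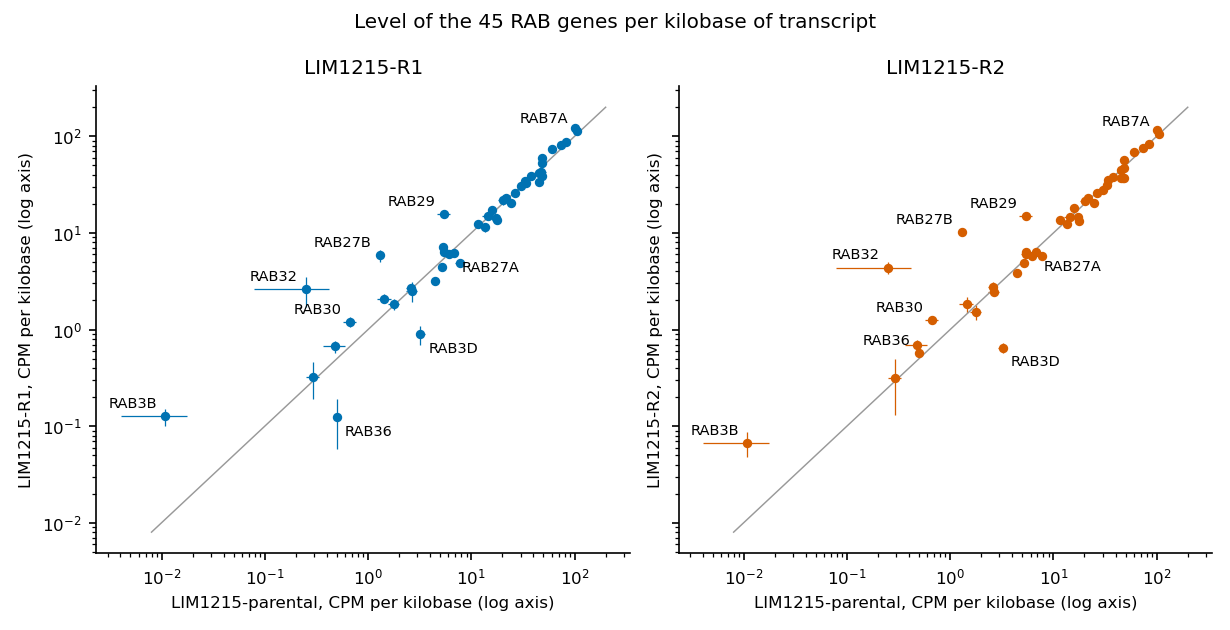
Mean CPM per kilobase of the 45 RAB genes in LIM1215-R1 (left) and LIM1215-R2 (right) against LIM1215-parental, on log axes, with bars for the SD of 3 libraries and a line where both lines are equal. The abundant genes lie along the line up to RAB7A at 105 CPM per kilobase, and RAB27B, RAB3B, RAB32 and RAB29 lie above it in both panels.

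The resistant lines differed from each other in 2 members. In LIM1215-R2 against LIM1215-R1, RAB27B and RAB36 were higher, against a background of 3.39% of all genes tested, and 0 were lower in the edgeR test, against 3.77%. At an unadjusted p under 0.05, 6 members were lower, but the share of all genes at that threshold was not taken, so the 6 has no background. DESeq2 called 0 members lower. Of the genes with at least 90 counts 9.92% were called in either direction, and of the members 4.44%. RAB27B was 1.74-fold higher in LIM1215-R2 (log2 fold change 0.80, SE 0.0821, edgeR adjusted p = 6.45e-08) and RAB36 4.55-fold higher (2.19, SE 0.285, edgeR adjusted p = 3.53e-06). Only RAB36 met the DEG threshold, which 0.764% of all genes met. The other large gaps were not called: RAB32 had a log2 difference of 0.72 (edgeR adjusted p = 0.0286) and RAB3B of -0.92 (edgeR adjusted p = 0.0596).

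Genes beside the members that changed most were read as well. CCDC68, next to RAB27B, was higher in both lines (log2 fold change 0.66 and 0.94, edgeR adjusted p = 2.16e-06 and 3.91e-09), and C18orf54 on the other side was not called. SLC41A1, next to RAB29, was higher (0.95 and 0.98, edgeR adjusted p = 1.32e-13 and 5.89e-14), and NUCKS1 on its other side was lower (-0.41 and -0.36, edgeR adjusted p = 1.46e-08 and 1.47e-07). DDIAS, next to RAB30, was higher (0.50 and 0.48, edgeR adjusted p = 1.36e-06 and 2.75e-06). GNAZ, beside RAB36, was higher in LIM1215-R1 (1.63, edgeR adjusted p = 4.51e-09), where RAB36 was lower. Both neighbours of RAB32, which rose, were lower in LIM1215-R1, SHPRH with a log2 fold change of -0.58 (edgeR adjusted p = 3.45e-06) and STXBP5 with -0.24 (edgeR adjusted p = 0.00429). TXNDC12, beside RAB3B, was lower in LIM1215-R2 (-0.20, edgeR adjusted p = 0.00306). NSD1, beside RAB24, was lower in both lines (-0.36 and -0.27, edgeR adjusted p = 1.09e-06 and 6.35e-05), like RAB24. Beside RAB3D, DOCK6 was lower (-0.22, edgeR adjusted p = 0.00625) and TMEM205 higher (0.24, edgeR adjusted p = 0.00741) in LIM1215-R1. The calls of STXBP5, TXNDC12, DOCK6 and TMEM205 were lost in 3, 3, 5 and 5 of the 9 fits without a library, and the other neighbours were not called.

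RAB proteins act with exchange factors (GEFs) that load GTP, GTPase-activating proteins (GAPs) that switch them off, the prenylation machinery, and effectors. Of 142 such genes listed, 132 were tested, and 26 were higher and 27 lower in LIM1215-R1, 26 higher and 16 lower in LIM1215-R2, and 5 higher and 4 lower in LIM1215-R2 against LIM1215-R1. These are 40.2%, 31.8% and 6.82% of the genes tested on the lists, against 27.3%, 23.8% and 7.16% of all genes tested with the same minimum of 10 counts, and 36.6%, 31.9% and 9.92% of the genes with at least 90 counts. The median log2 fold change was -0.03 in LIM1215-R1 and 0.05 in LIM1215-R2. Without the third LIM1215-R1 library, 17 were lower in LIM1215-R1.

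Of 11 RAB27 effectors, 9 were tested, and SYTL5 and RPH3A had too few reads. SYTL1 and SYTL2, synaptotagmin-like proteins that link RAB27 vesicles to the plasma membrane, were higher in both lines. SYTL1 had 7.08, 7.66 and 8.88 CPM in LIM1215-parental, 14.5, 12.6 and 14.8 in LIM1215-R1 and 14.6, 14.5 and 18.4 in LIM1215-R2 (log2 fold change 0.82 and 1.00, edgeR adjusted p = 4.16e-06 and 1.45e-07). The resistant libraries all lay above the parental ones. SYTL2 changed by 0.62 and 0.67 (edgeR adjusted p = 0.00118 and 0.000509).

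MYRIP, which ties RAB27 organelles to myosin and actin, was the one RAB27 effector called lower. Its levels were 25.4, 24.3 and 23.4 CPM in LIM1215-parental, 10.1, 8.85 and 12.8 in LIM1215-R1 and 11.6, 11.2 and 9.93 in LIM1215-R2 (log2 fold change -1.20 and -1.16, edgeR adjusted p = 5.84e-10 and 1.15e-09). Both resistant lines lay well under the parental line and overlapped each other.

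UNC13D, a priming factor for exocytosis, was higher in LIM1215-R1 (log2 fold change 0.53, edgeR adjusted p = 0.000167), and its value in LIM1215-R2 was 0.29 (edgeR adjusted p = 0.0372). EXPH5 and RPH3AL were called higher in LIM1215-R2 (0.35 and 1.01, edgeR adjusted p = 0.00068 and 0.00499), with 0.20 and 0.83 in LIM1215-R1 (edgeR adjusted p = 0.0437 and 0.0202). RPH3AL had at most 2.15 CPM in any library, and its call was lost with DESeq2 (adjusted p = 0.0204) and in 4 of the 9 fits without a library. SYTL4 was called in neither line, at 11.6 to 16.8 CPM, and SYTL3 and MLPH, at most 1.01 CPM in any library, were not called. None of the 9 was called between the resistant lines in the edgeR test.

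**Figure D4:**
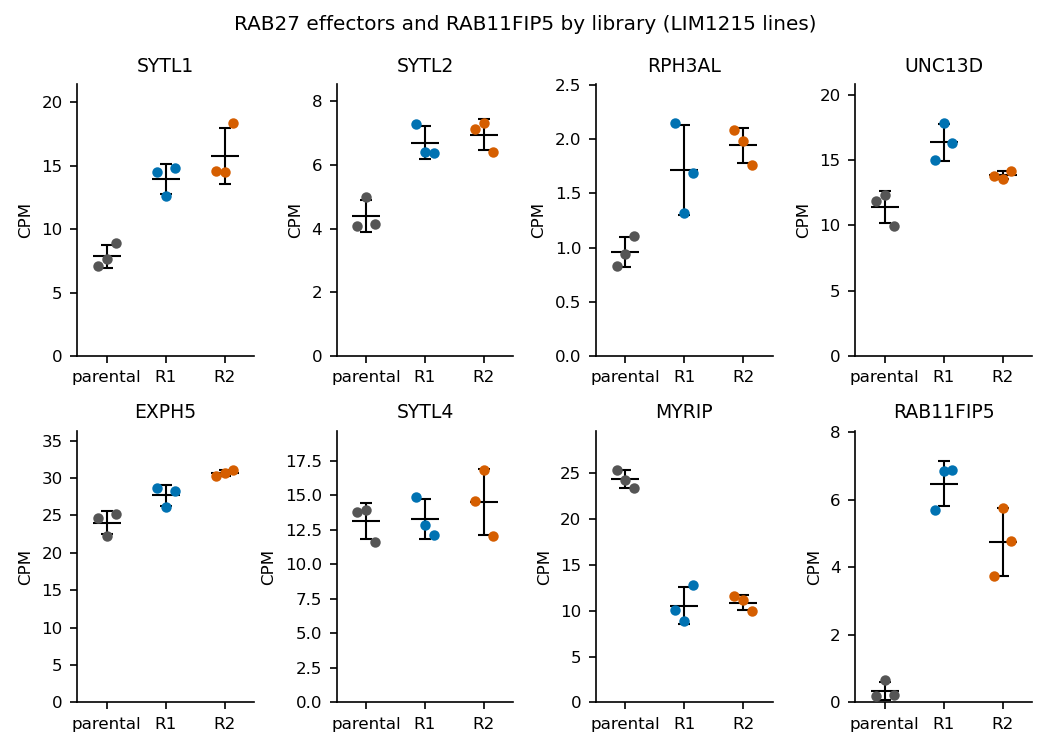
CPM of 7 RAB27 effectors and of RAB11FIP5 in each library (points) of the parental line, LIM1215-R1 and LIM1215-R2, with the mean and SD of 3 libraries in black and an axis from 0 in each panel. SYTL1 and SYTL2 are higher and MYRIP lower in both resistant lines, and RAB11FIP5 goes from under 1 CPM to a range of 3.75 to 6.88 CPM.

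RAB11FIP5, an effector of RAB11 in endosomal sorting, showed the largest increase of the listed effectors and regulators that were called. It had 16 reads over the 3 parental libraries, 312 over LIM1215-R1 and 229 over LIM1215-R2, a ratio of 19.7 (95% counting interval 11.9 to 34.8) and 14.6 (8.80 to 26.0), with edgeR adjusted p = 2.86e-12 and 7.82e-11. Of the 10 RAB11 effectors, 3 were higher and 3 lower in LIM1215-R1 and 4 higher and 1 lower in LIM1215-R2. Thus 6 and 5 of the 10 were called, against 36.6% and 31.9% of the genes with at least 90 counts.

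Of 37 GEFs tested, 6 were higher and 7 lower in LIM1215-R1 and 8 higher and 6 lower in LIM1215-R2, which is 35.1% and 37.8% against the same 36.6% and 31.9%. RIN3, an exchange factor for RAB5, was higher in both lines (log2 fold change 1.01 and 1.09, edgeR adjusted p = 5.19e-10 and 1.05e-10), and RIN2, of the same family, lower (-0.59 and -1.17, edgeR adjusted p = 0.00721 and 9.43e-06). DENND1C, which acts on RAB35, was higher (1.82 and 2.09, edgeR adjusted p = 3.11e-07 and 1.69e-08). DENND5B and DENND2B were lower, DENND5B from between 22.3 and 26.6 CPM in LIM1215-parental to between 10.8 and 10.9 in LIM1215-R1 and between 6.75 and 8.03 in LIM1215-R2 (-1.19 and -1.77, edgeR adjusted p = 8.62e-11 and 8.72e-14) and DENND2B by less (-0.92 and -1.34, edgeR adjusted p = 9.03e-05 and 9.23e-07). The call of RIN2 in LIM1215-R1 was the least stable of these, lost with DESeq2 and in 5 of the 9 fits without a library.

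Of 35 GAPs tested, 3 were higher and 10 lower in LIM1215-R1, and 2 higher and 5 lower in LIM1215-R2, so that 13 and 7 of the 35 were called, against 36.6% and 31.9% of the genes with at least 90 counts. Of all genes tested, 13.4% were lower in LIM1215-R1 and 11.6% in LIM1215-R2. TBC1D12 was lower in both lines (log2 fold change -1.09 and -0.83, edgeR adjusted p = 8.28e-11 and 1.05e-08) and TBC1D30 higher (1.02 and 1.16, edgeR adjusted p = 8.05e-10 and 5.05e-11). SGSM1 was lower (-1.38 and -3.29, edgeR adjusted p = 0.00223 and 1.24e-06), at 1.30 to 2.31 CPM in LIM1215-parental and at most 0.879 in the resistant lines, and its call in LIM1215-R1 was lost with DESeq2 and in 3 of the 9 fits without a library. Among 15 Golgi and exocytic effectors 8 were higher and 2 lower in LIM1215-R1 and 6 higher and 1 lower in LIM1215-R2, or 66.7% and 46.7% against that background, a difference that was not tested. The early endosome effectors had 0 higher and 2 lower of 9 in LIM1215-R1 and 1 higher and 1 lower in LIM1215-R2, 22.2% in each line. Of 10 late endosome and lysosome effectors, 2 were higher and 2 lower in LIM1215-R1 and 0 higher and 1 lower in LIM1215-R2, 40.0% and 10.0% of the list. RILPL2, which binds RAB proteins phosphorylated by LRRK2, was higher in LIM1215-R1, from between 2.63 and 3.25 CPM to between 6.15 and 7.76 CPM (log2 fold change 1.23, edgeR adjusted p = 4.35e-07), and stood at 3.85 to 4.04 CPM in LIM1215-R2 (0.45, edgeR adjusted p = 0.0471).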

How the data were processed

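Paired-end reads came from stranded mRNA libraries. The authors used STAR to place them on hg38 and HTSeq 0.9.1 to count those matching the reverse strand of a gene, and deposited the raw counts of each library, without normalization. The gene annotation is not given in the sources used here. Libraries were grouped by line, as the labels give it, and no column of other samples was present.

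The analysis used edgeR 4.0.16 in R 4.3.3. The 19102 genes whose counts summed to at least 10 were scaled by TMM and fitted with the 3 lines as groups (quasi-likelihood, two-sided, Benjamini-Hochberg over all genes tested), and all comparisons come from that fit. CPM per kilobase uses the length of the canonical transcript in GENCODE release 44. Gene positions and promoters came from RefSeq (GRCh38.p14), with positions for all 45 members. Shared words are sequences of 75 bases that occur in transcripts of another GENCODE gene. Alternatives were other filters and thresholds, DESeq2 1.42.0, DESeq2 size factors, total counts, fits to 6 libraries, the replicate number as a block, removal of trends on GC content and length, and each library left out in turn. The test was tried on simulated counts first. Counting intervals are exact 95% intervals, and depth sets the floor of 3 counts.

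The members and lists were chosen with earlier results of these data known. All members have a level or a call. Full values were given for RAB27A and RAB27B, members called with at least a 1.5-fold change, the 5 highest per kilobase in LIM1215-parental and the usual organelle markers. The other genes named were the RAB27 effectors and listed genes called with a log2 fold change of 1 or more in size and at least 1 CPM. Members called with smaller changes, genes next to changed members and listed genes that differed between the resistant lines were named in addition. A result of the listed regulators is not reported here.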

Additional observations from a re-analysis of the deposited data

Results flagged for a closer look

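The change against LIM1215-parental differed between the resistant lines in 2 RAB genes and 9 of the listed regulators and effectors, each tested as LIM1215-R2 against LIM1215-R1 with edgeR's quasi-likelihood test at an adjusted p of at most 0.01. The 2 were 4.44% of the members and the 9 were 6.82% of the listed genes tested. Of all genes tested 7.16% were called, and of those with at least 90 counts 9.92%. RAB27B differed by a log2 fold change of 0.80 and RAB36 by 2.19. Of the exchange factors, DENND4C was higher in LIM1215-R2 by 0.30 and DENND5B lower (-0.57). The GAP TBC1D15 was higher by 0.29 and TBC1D9 lower (-0.40). RILPL2, higher in LIM1215-R1 than in the other two lines, gave -0.78. The Golgi tethers GCC2, GOLGB1 and USO1 were higher in LIM1215-R2 by 0.30, 0.49 and 0.34, and MICALL1 was lower (-0.34). The calls of DENND5B and RILPL2 were each lost in 1 of the 9 fits without a library, DENND5B without the second LIM1215-R2 library (adjusted p = 0.0121) and RILPL2 without the third LIM1215-R1 library (adjusted p = 0.0107). TBC1D9 and MICALL1 were lost in 3 and GCC2 and TBC1D15 in 4 of these fits, and TBC1D15 also with GC and length trends removed. GOLGB1 was lower than in LIM1215-parental in LIM1215-R1 (-0.44, adjusted p = 2.12e-05) and level with it in LIM1215-R2 (0.05, adjusted p = 0.642), whereas USO1 was called higher in LIM1215-R2 alone (0.43, adjusted p = 1.07e-06). With 3 libraries per line, a search for single outlying libraries was not made.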

How the results depend on the processing

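RAB27B, RAB3B, RAB32, RAB29, RAB30 and RAB3D in both lines, and RAB36 in LIM1215-R1, were called with the same direction in every alternative that tested them. Requiring 10 counts in every library removed scarce genes and left 3 DEGs among the members in LIM1215-R1, 6 members higher and 2 DEGs in LIM1215-R2, and 1 member higher and 0 DEGs between the resistant lines. At an adjusted p of at most 0.05, 40 listed regulators and effectors were higher in LIM1215-R2, and between the resistant lines 4 members were higher and 2 lower and 10 listed genes higher and 8 lower. With GC and length trends removed, 4 members were higher and 2 lower between the resistant lines and 11 were higher in both; GC content and length were known for 86.6% of the genes tested.

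Leaving out 1 library at a time gave 6 to 11 members higher in LIM1215-R2, 17 to 27 listed genes lower in LIM1215-R1, and 3 to 8 listed genes higher and 1 to 7 lower between the resistant lines; the highest of these last counts came without the first LIM1215-R1 library and the 1 without the second LIM1215-R2 library. DESeq2, its size factors, total counts, no filter and fits to 6 libraries kept all 17 counts within 1.5 times. So did the replicate block, which gave 10 members higher and 10 lower in LIM1215-R1 and 11 higher in LIM1215-R2. Deviations from the line means correlated with r between -0.11 and 0.27 for same-numbered libraries and between -0.26 and 0.19 for other pairs across lines. The highest value was that of the second parental and second LIM1215-R1 libraries. The labels give only a shared number.

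Among the genes chosen for full values and the regulators and effectors named by the same rules, the sign turned only for genes that were not called. With total counts, the log2 fold change was -0.022 for RAB11A and -0.0069 for SYTL4 in LIM1215-R1 and -0.0053 for RAB7A and -0.0050 for RAB25 in LIM1215-R2. With GC and length trends removed it was -0.053 for RAB25 and -0.059 for RAB1B in LIM1215-R1, and -0.010 for RAB25, -0.056 for RAB1B and 0.0069 for RAB6A in LIM1215-R2. Without 1 library it ranged in LIM1215-R1 from -1.50 to 0.17 for MLPH, -0.0075 to 0.042 for RAB11A, -0.44 to 1.14 for SYTL3 and -0.062 to 0.089 for SYTL4, and in LIM1215-R2 from -0.73 to 0.81 for MLPH, -0.0058 to 0.041 for RAB25, -0.026 to 0.00056 for RAB6A, -0.0098 to 0.031 for RAB7A and -1.34 to 0.25 for SYTL3. Other members that were not called also turned sign without 1 library. RAB43 ranged from -0.21 to 0.39 in LIM1215-R1 and from -0.41 to 0.47 in LIM1215-R2, and RAB19 from -0.28 to 0.07 in LIM1215-R1. The cause was not tested. Depth limits RAB3B, RAB32 and RAB36, which rest on few reads in their lower line.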
